A study of Mus musculus with 1279 samples.

Results

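Ion channel genes of the heart's stromal cells were followed across 8 clusters of cells and 4 mouse strains. The members were 83 protein-coding genes among the 46517 genes of the count table. Their symbols start with Kcn, Cacn, Trpc, Trpm, Trpv, Scn, Clcn, Ano or Piezo. Of the other genes with such symbols, 6 were set aside by name (Kcnj8, Kcnj11, Kcnma1, Kcnmb1, Cacna1c and Cacna1h), 18 had no count in any cell, and 75 had counts but in fewer than 5% of the cells of every cluster. The members were thus selected on their own share of cells with a count, and these shares are given as a description. Just inside the limit were Kcnab2, with a highest share of 5.08%, and Cacna2d3 with 5.13%, and just outside were Trpv3 with 4.72% and Trpm6 with 4.29%.

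The data were Smart-seq2 read counts of single cells from hearts of male mice aged 10 to 20 weeks, all backcrossed to C57Bl6/J, with no treatment in the labels and no animal named. C57BL6 cells carried no reporter and were sorted with antibodies to PDGFRα or PDGFRβ, while PdgfrbGFP, Cspg4dsRED and Acta2GFP cells carried a transgene that drives a fluorescent protein from Pdgfrb, Cspg4 or Acta2 regulatory sequences, and CD31+ cells were left out of the sorts. C57BL6 gave 581 cells, PdgfrbGFP 364 and the other strains fewer. Each reporter strain came from 1 plate, and Acta2GFP hearts were dissociated with added elastase, so that strain, sort, plate and dissociation cannot be told apart. The authors' clusters 1 to 5 are fibroblasts, with cluster 1 likely from valves, and clusters 6, 7 and 8 were taken here as large-vessel smooth muscle cells, other vascular smooth muscle cells and pericytes.

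The marker genes followed these names with exceptions. Summed smooth muscle markers (Acta2, Myh11, Tagln and Cnn1) had a mean of 11449 CPM (reads scaled to 1 common library total) in cluster 6 and 12725 CPM in cluster 7, against 1510.5 CPM in cluster 8. Summed pericyte markers (Kcnj8, Abcc9, Rgs5 and Vtn) had 17298 CPM in cluster 8 against 4773 CPM in cluster 7. Fibroblast markers (Pdgfra, Col1a1, Dcn, Lum and Fbln1) were also present in cluster 6, with 11041 CPM in the 3 C57BL6 cells and 2144 and 1925 CPM in the other strains. A level below is the CPM of the counts summed over the cells of a cluster in 1 strain with 3 or more cells, and an error is the SD over strains. Clusters 1, 2, 4 and 8 had 4 such strains, clusters 3, 6 and 7 had 3, and cluster 5 had 2.

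Ion channels are membrane proteins that let ions pass along their gradients. Potassium channels (Kcn genes) hold the resting membrane potential of smooth muscle cells and pericytes negative, and closing them opens voltage-gated calcium channels (Cacna1 genes) and leads to contraction. Anoctamins such as Ano1 and cation channels of the Trp families depolarise the cell, Piezo genes encode stretch-activated channels, and Clcn genes encode chloride channels and chloride-proton exchangers, several of them in endosomes and lysosomes. Fibroblasts are not electrically excitable in the usual sense, but are known to carry potassium, sodium and stretch-gated channels. Many members encode subunits that do not form a pore (Kcnab, Kcne, Kcnip, Cacnb, Cacna2d and the sodium channel beta subunits), and Scnm1, a splicing factor, and Trpc4ap, a partner protein, share only the name.

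Promoter sequences are shown for 3 members that differed between fibroblasts and mural cells (Kcna5, Scn7a and Ano1) and for 2 with their highest mean in cluster 7 and a shared motif (Trpc6 and Trpv1). They were picked after their values and matches were seen, and promoters of other members that differed, several of them by more than Scn7a, are not printed. RefSeq starts (build GRCm38.p6) were available for 63 of the 83 members, with 92 promoters. In the 250 bases before each start, 3 motifs were searched on both strands: the CArG box bound by serum response factor, known from smooth muscle genes, CATTCC, bound by TEAD factors, and TATAAA. Capitals mark a match to the CArG box in Trpc6 and Trpv1 and to CATTCC (or its reverse complement) in Kcna5 and Scn7a, and Ano1 is shown as a mural promoter with no match. The windows lie at chr9:8543892-8544141 (+) for Trpc6, chr11:73233899-73234148 (+) for Trpv1, chr6:126535556-126535805 (-) for Kcna5, chr2:66784911-66785160 (-) for Scn7a and chr7:144738574-144738823 (-) for Ano1.
Trpc6: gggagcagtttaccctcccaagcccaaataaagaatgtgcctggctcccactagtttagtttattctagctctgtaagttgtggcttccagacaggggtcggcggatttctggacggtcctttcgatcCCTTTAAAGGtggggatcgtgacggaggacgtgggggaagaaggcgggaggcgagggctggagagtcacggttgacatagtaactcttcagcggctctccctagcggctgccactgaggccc
Trpv1: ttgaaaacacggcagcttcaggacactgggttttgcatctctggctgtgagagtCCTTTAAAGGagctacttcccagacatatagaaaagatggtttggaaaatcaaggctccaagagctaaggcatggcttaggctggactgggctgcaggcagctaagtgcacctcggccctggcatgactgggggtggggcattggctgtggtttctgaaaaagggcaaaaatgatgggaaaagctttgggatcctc
Kcna5: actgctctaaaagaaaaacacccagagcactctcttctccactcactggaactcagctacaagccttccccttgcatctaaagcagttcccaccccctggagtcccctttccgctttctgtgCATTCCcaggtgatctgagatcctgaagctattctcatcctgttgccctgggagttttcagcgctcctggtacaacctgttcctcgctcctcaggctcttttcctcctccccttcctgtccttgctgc
Scn7a: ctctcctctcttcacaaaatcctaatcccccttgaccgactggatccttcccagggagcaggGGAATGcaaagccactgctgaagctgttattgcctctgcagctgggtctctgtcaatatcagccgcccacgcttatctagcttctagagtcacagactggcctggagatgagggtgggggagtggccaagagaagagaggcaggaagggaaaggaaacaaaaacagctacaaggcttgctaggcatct
Ano1: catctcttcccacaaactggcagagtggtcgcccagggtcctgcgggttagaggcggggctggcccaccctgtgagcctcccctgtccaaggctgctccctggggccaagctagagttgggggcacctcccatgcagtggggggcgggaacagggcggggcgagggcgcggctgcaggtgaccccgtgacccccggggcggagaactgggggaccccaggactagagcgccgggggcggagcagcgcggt
The CArG box of Trpc6 and Trpv1 had the same 10 bases. It was present in 2.17% of the member promoters (2 of 92) and in 1.47% of 32851 promoters of all genes, so its share among the members was near that of all genes. CATTCC was in 13.04% of member promoters against 12.6% of all, and TATAAA in 5.43% against 12.4%. Member promoters had a median GC content of 59% and all promoters one of 52.4%. These matches are letters in a window and not binding sites.

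The mean summed level of the 83 members was higher in each mural cluster than in any fibroblast cluster, though single strains overlapped. Summed CPM was 3438 ± 217.03 (SD, n = 3 strains) in cluster 7, 2959 ± 669 (n = 4) in cluster 8 and 2316 ± 113.4 (n = 3) in cluster 6. In fibroblasts the means ran from 1335 CPM in cluster 5 to 1853 CPM in cluster 1. Acta2GFP cells of cluster 3, with 2558 CPM, lay above every strain of cluster 6, where Acta2GFP had 2436 CPM. For Cspg4dsRED the sum of cluster 1 (2314 CPM) was about that of cluster 6 (2300.1 CPM). A cell held counts of a median of 16 members in cluster 7, 15 in cluster 6, 12 in cluster 1 and 7 to 11 in the other fibroblast clusters and cluster 8. With every cell thinned to 50000 counts, which leaves out 2 cells, these medians were 11, 10 and 7, with 4 to 6 in the rest. These medians pool the strains, whose own medians were 19 in Acta2GFP, 15 in Cspg4dsRED, 9 in C57BL6 and 7 in PdgfrbGFP. Clusters 6 and 7 were mostly Cspg4dsRED and Acta2GFP cells and cluster 8 mostly PdgfrbGFP cells, so the part of the strain in the medians was not tested. Detection also chose the members. Reads were lowest in cluster 8, with a median of 167874 per cell.

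Between genes, levels were compared per kilobase (kb) of annotated exon. Averaged over the 8 clusters, Kcne4, a small subunit that dampens Kv channels, was highest with 47.3 CPM per kb. It was followed by Scnm1 (28.3), Clcn4, an endosomal exchanger (22.9), Clcn7, the lysosomal exchanger (20.5), and Scn7a, the sodium-sensing channel Nax (18.998). Trpv2 (17.9), the calcium channel beta subunit Cacnb3 (15.9), Ano1 (15.2), Ano10 (14.2), the lipid scramblase Ano6 (12.1) and Kcna5 (10.6) were also among the 12 highest. Neighbours could lie within their spread: in cluster 8, for example, Scnm1 had 33.98 ± 12.5 and Clcn4 32.3 ± 15.4 CPM per kb over 4 strains.

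Pore-forming potassium channels and their helpers made the largest part of the mural sum. Voltage-gated pore genes (16 members) summed to 101.3 CPM per kb in cluster 7 and 73.9 in cluster 6, against 28.9 in cluster 8 and 5.72 to 15.96 in fibroblast clusters. Potassium auxiliary genes (7 members) summed to 157.6 and 130.9 CPM per kb in clusters 7 and 8. Sodium channel genes ran the other way, with 47.7 to 76.4 CPM per kb in clusters 2 to 5 and 16.4 to 30.3 in clusters 6 to 8. Calcium channel pores were low everywhere, at 7.21 CPM per kb or less over the 5 members, which leave out Cacna1c and Cacna1h.

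**Figure D1:**
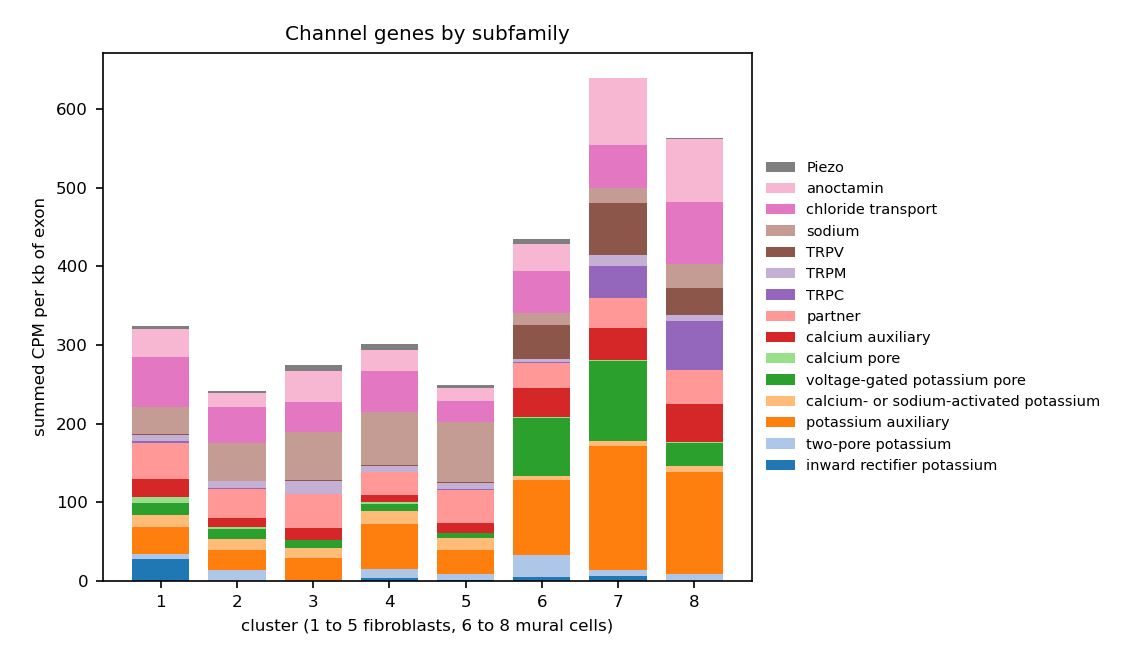
Summed level of the members per subfamily (CPM per kb of exon, mean over strains, stacked) in clusters 1 to 8. The stack is highest in cluster 7, where voltage-gated potassium pores reach 101.3 CPM per kb, and sodium channel genes take a larger part in clusters 2 to 5 than in clusters 6 to 8.

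**Figure D2:**
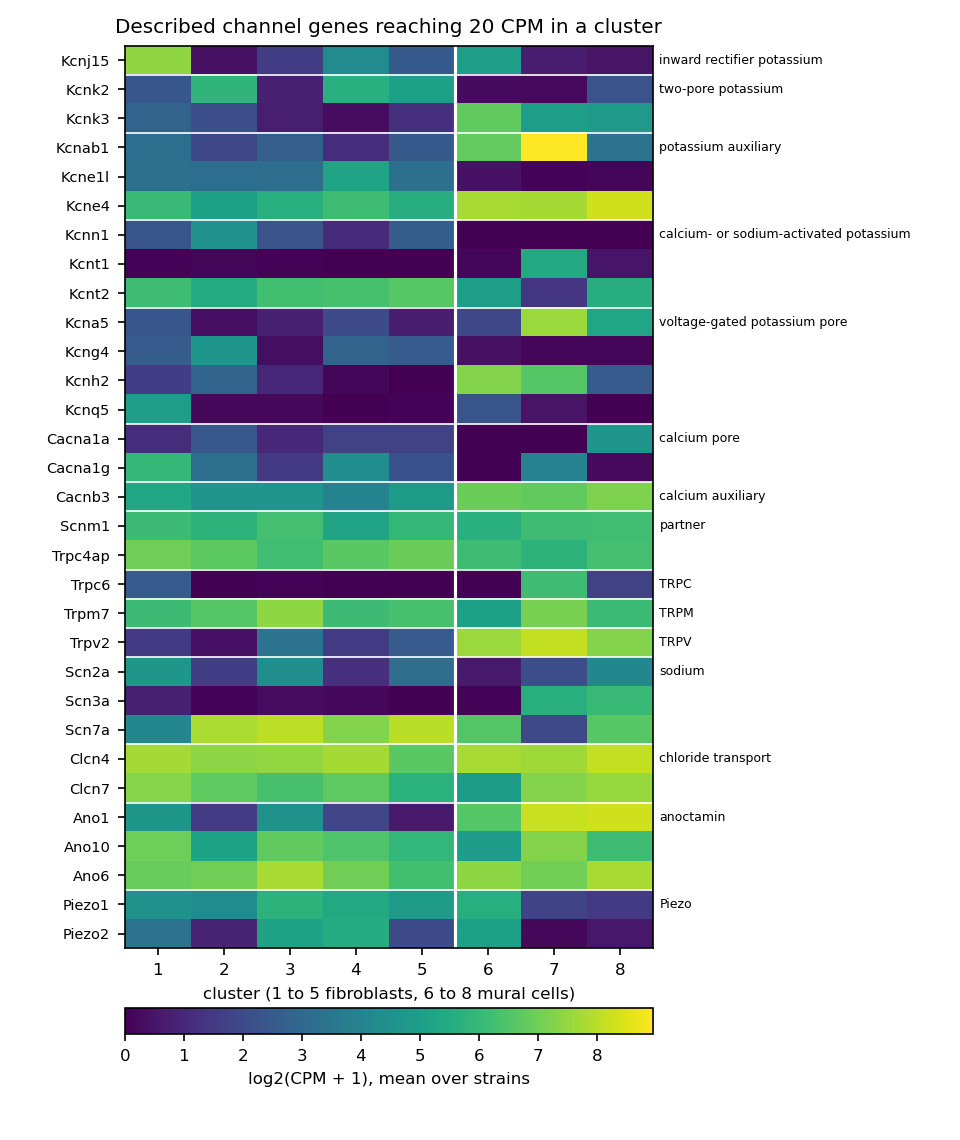
Level of 31 members described in the text that reached 20 CPM in a cluster, as log2(CPM + 1) of the mean over strains, with clusters as columns and members grouped by subfamily. Trpv2 and Ano1 are brighter in clusters 6 to 8 than in clusters 1 to 5, and Scn3a is bright in clusters 7 and 8. Scn7a is brightest in clusters 2 to 5 and somewhat less bright in clusters 6 and 8. Kcnk2 is bright in clusters 2, 4 and 5, and Clcn4, Ano6 and Trpm7 have color in all.

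Fibroblasts and mural cells were compared on counts summed per strain (edgeR, 4 strains), which asks which channel genes separate these stromal lineages. Of 63 members tested, 14 passed an adjusted p of 0.05, 7 higher and 7 lower in fibroblasts, and 20 members had too few counts for the test. Among all 15117 genes tested, 5.93% passed, 3.47% higher and 2.45% lower in fibroblasts. The members were selected on counts in these clusters and the clusters were made from the same counts, so nothing is read from the share of members that passed. The median log2 fold change was -0.37 over the members tested and -0.02 over all genes.

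Scn3a, a neuronal-type sodium channel pore, was almost absent from fibroblasts. Its levels in mural cells were 58.95, 60.1, 28.9 and 44.3 CPM in C57BL6, PdgfrbGFP, Cspg4dsRED and Acta2GFP, and in fibroblasts 0.0121, 0.152, 0.284 and 0.144 CPM. No fibroblast sum came near a mural one. This gave a log2 fold change of -8.54 with an SE of 1.05 (edgeR, adjusted p = 0.00131).

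Trpv2, a cation channel linked to stretch, and Ano1, the calcium-activated chloride channel, were also mural. Trpv2 had 213.5, 206.2, 174.97 and 86.95 CPM in mural cells against 5.02, 0.428, 1.99 and 2.93 CPM in fibroblasts (log2 fold change -6.07 ± 0.74, edgeR adjusted p = 0.00131). Ano1 had 202.1, 403, 319 and 225.5 CPM in mural cells against 5.18, 6.41, 0.569 and 10.4 CPM in fibroblasts (-5.68 ± 0.75, adjusted p = 0.00196). In both genes the lowest mural strain was far above the highest fibroblast strain. Scn3a, Trpv2 and Ano1 passed under all 11 alternatives run.

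Kcna5, a Kv pore, and Kcnab1, a beta subunit that binds Kv pores of the Kcna family, were lower in fibroblasts with a wide spread between mural strains. Kcna5 had 83.7, 38.97, 109.02 and 217.7 CPM in mural cells against 1.73, 0.124, 3.22 and 4.31 CPM in fibroblasts (log2 fold change -5.63 ± 0.97, edgeR adjusted p = 0.00817, and 0.0577 without C57BL6). Kcnab1 had 25.8, 42.2, 274.1 and 407 CPM in mural cells against 0.815 to 9.08 CPM in fibroblasts (-5.43 ± 1.14, adjusted p = 0.0201). Its higher levels were in Cspg4dsRED and Acta2GFP, where more mural cells were of cluster 7 (75 and 33) than of cluster 8 (29 and 15), and its adjusted p was 0.0504 to 0.0774 without any 1 strain. Kcne4 was detected on both sides, with 355, 129.1, 245.3 and 316 CPM in mural cells against 32.2, 52.04, 80.5 and 57.4 CPM in fibroblasts (-2.24 ± 0.38, adjusted p = 0.00725). Its adjusted p was 0.0509 without C57BL6 and 0.0600 without Acta2GFP.

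Among members higher in fibroblasts, Scn7a and Kcnk2 were at high levels. Scn7a had 243.7, 159.7, 170.3 and 157.2 CPM in fibroblasts against 49.3, 36.4, 26.2 and 68.7 CPM in mural cells (log2 fold change 2.01 ± 0.36, edgeR adjusted p = 0.00933). Kcnk2, a background potassium channel opened by stretch and lipids, had 36.1, 32.9, 60.7 and 31.98 CPM in fibroblasts against 0.463, 0.194, 2.80 and 0.488 CPM in mural cells (5.33 ± 0.96, adjusted p = 0.00991). The groups did not overlap in either gene. Some calls were lost when a strain was left out: Scn7a had an adjusted p of 0.0650 without C57BL6 and 0.0669 without PdgfrbGFP, and Kcnk2 of 0.0601 without C57BL6 and 0.0611 without Acta2GFP.

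The other fibroblast members were low and rested on few cells. Kcne1l, a small Kv-dampening subunit also called Kcne5, had 15.3, 23.5, 20.6 and 12.8 CPM in fibroblasts against at most 0.243 CPM in mural cells (log2 fold change 7.15 ± 1.23, edgeR adjusted p = 0.00810, and 0.0505 without Acta2GFP). Kcng4, a silent Kv subunit, had 10.4, 3.48, 23.03 and 11.5 CPM in fibroblasts against at most 0.293 CPM in mural cells (6.70 ± 1.45, adjusted p = 0.0228). Kcnn1, a small-conductance calcium-activated potassium channel, had 5.40, 10.98, 18.005 and 0.784 CPM in fibroblasts. It had 1920 reads there and 2 in mural cells, a ratio of rates of 274.7 with an exact counting interval of 75.9 to 2270.0 (adjusted p = 0.0121). Kcnn1 reads came from 14 fibroblasts with 10 or more reads, 44.6% of its cluster 2 reads were from 1 cell, and those of Kcne1l and Kcng4 came from 34 and 25 such cells. Kcnk6, another background potassium channel, had 0.758 to 4.83 CPM in fibroblasts against at most 0.232 CPM in mural cells (4.01 ± 1.01, adjusted p = 0.0437).

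These lower members were less steady across settings. Leaving out any 1 strain gave adjusted p values of 0.0597 to 0.110 for Kcng4 and 0.0798 to 0.222 for Kcnk6 (edgeR), and leaving out C57BL6, PdgfrbGFP or Cspg4dsRED gave 0.0636 to 0.0640 for Kcnn1. With the strain as a replicate block, Kcng4 had an adjusted p of 0.0801 and Kcnk6 one of 0.148, and 12 members passed in all.

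**Figure D3:**
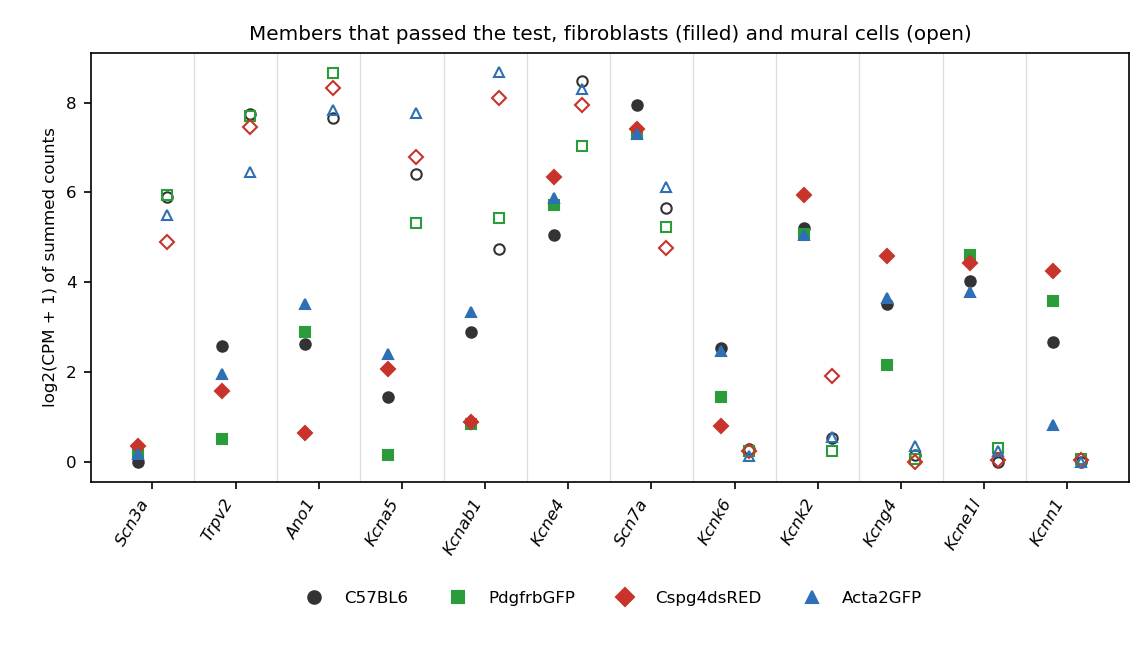
Level of 12 of the 14 members that passed the test in fibroblasts (filled) and mural cells (open) of each strain, as log2(CPM + 1) of summed counts, ordered by fold change from lower to higher in fibroblasts. Filled and open symbols of 1 gene are apart in every case, and mural levels of Kcnab1 spread over a wider range than those of Scn3a.

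By subfamily, the passing members were spread unevenly and in small numbers. Of the sodium channel genes, 5 of 7 were tested, and 2 were higher in fibroblasts, Scn7a among them, and Scn3a was lower. All 4 background potassium channel genes were tested, and Kcnk2 and Kcnk6 were higher. Of 16 voltage-gated potassium pore genes, 11 were tested, with Kcng4 higher and Kcna5 lower. Of 7 potassium auxiliary genes, 5 were tested, with Kcne1l higher and Kcne4 and Kcnab1 lower. No member passed among 6 chloride transport genes, 5 TRPM genes, 2 Piezo genes, the 3 tested calcium pore genes and the 7 tested calcium auxiliary genes.

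Several members that missed the threshold had different means. Piezo1, the general stretch-activated cation channel, had 30.9 ± 8.76 CPM in fibroblasts against 5.95 ± 4.89 CPM in mural cells (SD, n = 4, edgeR adjusted p = 0.0977), and 24.6% of its exon bases overlap another gene. Piezo2 had 25.6 ± 16.8 and 3.40 ± 4.89 CPM (adjusted p = 0.204). Cacnb3 had 30.5 ± 13.7 and 106.1 ± 66.7 CPM (adjusted p = 0.0720). The groups did not overlap for Piezo1, but overlapped for Cacnb3, and no difference was shown at this number of strains.

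Pericytes (cluster 8) and smooth muscle cells (cluster 7) were compared in the 3 reporter strains. No member of 39 tested passed the adjusted threshold in edgeR, against 0.194% of 11867 genes. An unadjusted p under 0.05 was found for 5 members (12.8%) and for 6.88% of all genes tested, and nothing is read from this count. With DESeq2, 3 members passed, and with limma-voom 1. The shares of all genes with these tools are given at the end. Kcnab1 was closest: it had 423, 372 and 683 CPM in cluster 7 of PdgfrbGFP, Cspg4dsRED and Acta2GFP and 0.378, 2.25 and 12.1 CPM in cluster 8 (log2 fold change -6.68 ± 1.21, adjusted p = 0.0528). It passed with the strain as a replicate block (adjusted p = 0.00733) and without Cspg4dsRED (0.0413) or Acta2GFP (4.96e-06), and its adjusted p reached 0.230 over the alternatives. Counts of Kcnab1 were present in 85.6% of the cells of cluster 7, the highest share of any member in any cluster, but in 33.3% of the 9 PdgfrbGFP cells, 85.3% of the 75 Cspg4dsRED cells and all 33 Acta2GFP cells.

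Kcna5, Kcnt1, Trpc6 and Kcnj2 also had their highest means in cluster 7, and of these Trpc6 was higher there than in cluster 8 in all 3 strains. Kcna5 had 0.981, 207.6 and 371 CPM there, so the 9 PdgfrbGFP cells nearly lacked it, while cluster 8 had 43.1, 9.45 and 2.99 CPM (edgeR adjusted p = 0.722). Kcnt1, a sodium-activated potassium channel, had 0, 40.5 and 85.4 CPM in cluster 7 and at most 1.02 CPM in any sum of the other clusters. Trpc6, a receptor-operated cation channel, had 169.8, 22.6 and 20.5 CPM in cluster 7 against 0.108, 9.30 and 0.149 CPM in cluster 8 (adjusted p = 0.650). Of its 995 reads in cluster 7, 346 (34.8%) came from 1 cell, and 11 cells there had 10 or more reads. The inward rectifier Kcnj2, which sets the resting potential of many muscle cells, had 784 reads in cluster 7 and 1 in cluster 8, 42.3 CPM of it in Cspg4dsRED and 0 in PdgfrbGFP.

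Cluster 7 also held counts of cardiac muscle genes. The 9 cardiac muscle markers summed to 1368 to 1922 CPM there against 258.5 to 418 CPM in cluster 8, with all 9 detected, and 1141 CPM of the mean of 1575 came from Pln, which smooth muscle also expresses. Their part in the levels of cluster 7 was not tested. Cells of PdgfrbGFP in cluster 7 had the highest summed pericyte markers of the 3 strains, 8974 CPM against 2486 and 2859 CPM.

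Scn3a and Cacna1a were found in pericytes. Scn3a was even in cluster 8 at 58.1 to 72.3 CPM, and it had 33.5 to 78.01 CPM in cluster 7. Cacna1a, the pore of P/Q-type calcium channels, had 45.1, 12.1, 41.7 and 0 CPM in cluster 8 and no read in cluster 7. In the reporter strains it had 502 reads in cluster 8, with 10 or more reads in 5 cells. By a floor of 3 counts for cluster 7, this is a ratio of rates of at least 167.4. That bound covers counting of reads only, and not the spread between cells or strains. Cacna1a had too few counts for the edgeR test, and 31.4% of its cluster 8 reads came from 1 cell. Acta2GFP thus had no Cacna1a read in cluster 8, where its pericyte markers were lowest (6942 CPM) and its smooth muscle markers highest (4033 CPM) of the 4 strains.

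Scn7a and Kcnt2 were higher in cluster 8 than in cluster 7, and so were fibroblast markers. Scn7a had 40.3, 128.1 and 200.4 CPM in cluster 8 against 0.981, 2.18 and 5.52 CPM in cluster 7 (log2 fold change 5.38 ± 1.38, edgeR adjusted p = 0.185). Kcnt2, a sodium-activated potassium channel, had 7.93, 44.998 and 87.2 CPM and at most 3.96 CPM (adjusted p = 0.641). All 5 fibroblast markers were detected in both clusters, with a sum of 448 to 2781 CPM in cluster 8 and 105.3 to 652 CPM in cluster 7, and their part in this difference was not tested.

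Counts of Kcna5 and Kcnab1 were also followed in single cells, with no test of association. Of the cells of cluster 7, 66.1% had a Kcna5 count, 85.6% a Kcnab1 count and 61.02% both. The share with both was 81.8% in Acta2GFP and 60% in Cspg4dsRED, and 0 of 9 PdgfrbGFP cells had both, though 3 had Kcnab1. Every Acta2GFP cell had Kcnab1, so the share with both is there the share with Kcna5. Cells without a count may express the gene below what was sequenced, so these are shares of cells with a read.

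**Figure D4:**
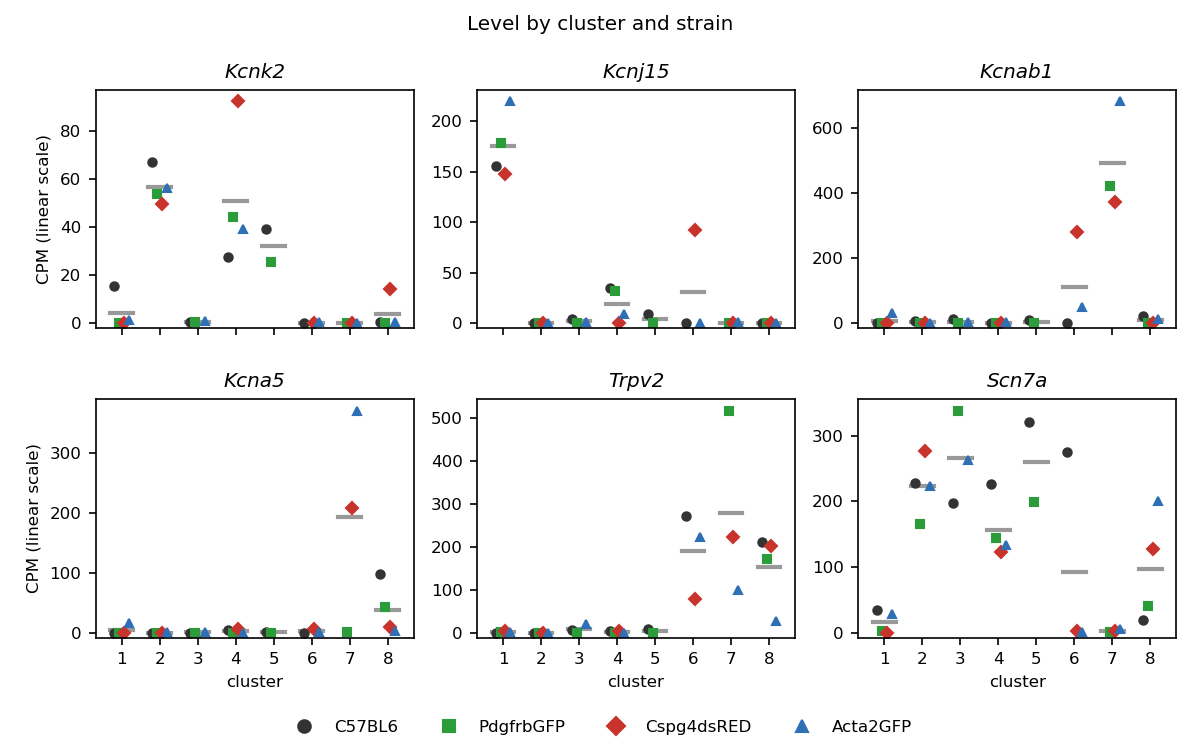
Level (CPM, linear scale) of Kcnk2, Kcnj15, Kcnab1, Kcna5, Trpv2 and Scn7a in clusters 1 to 8, 1 symbol per strain with 3 or more cells and a grey bar for the mean. Kcnj15 lies highest in cluster 1 in all 4 strains, Kcnk2 is near 0 in cluster 3, and the means of Trpv2 are highest in clusters 6, 7 and 8.

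Cluster 6, for which no list of large-vessel markers was summed here, was compared with clusters 7 and 8. This was done in C57BL6, Cspg4dsRED and Acta2GFP, with 3, 33 and 3 cells of cluster 6. No member of 40 tested passed in edgeR, against 0.0330% of 12117 genes. An unadjusted p under 0.05 was found for 5 members (12.5%) and for 5.74% of all genes tested, and nothing is read from this count. DESeq2 called 5 members and limma-voom 1, with the shares of all genes given at the end. Scn3a had 0, 0.185 and 0 CPM in cluster 6 against 66.9, 41.5 and 48.7 CPM in clusters 7 and 8. It had 2 reads in cluster 6 and 2438 in clusters 7 and 8, a ratio of rates of 328 with an exact counting interval of 90.7 to 2709.8 (adjusted p = 0.390). Scn3a was found in 23.7% of the cells of cluster 7 and 17.9% of cluster 8, so a 0 in a sum of 3 cells says little, and the low level of cluster 6 rests on the 33 Cspg4dsRED cells. Trpv2 was present in cluster 6 of all 3 strains, at 272.3, 79.4 and 221.9 CPM.

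Kcnh2 and Kcnk3 had their highest means in cluster 6 with wide spread. Kcnh2, the pore of the rapid delayed rectifier of heart muscle, had 0, 206.1 and 261.8 CPM in cluster 6, and 116.7 and 168.5 CPM in cluster 7 of Cspg4dsRED and Acta2GFP. Kcnk3, an acid-sensitive background potassium channel, had 0, 45.3 and 274.8 CPM. In both the C57BL6 sum, from 3 cells with high fibroblast markers, was lowest and the Acta2GFP sum, also from 3 cells, highest. The 9 cardiac muscle markers, all detected, had the same order in cluster 6, with sums of 5.88, 737 and 1482 CPM. Tnnt2 was the highest of them at a mean of 356 CPM. Actc1 is also among them, and the paper lists it as enriched in heart smooth muscle cells that likely come from large vessels. The part of these markers in the levels of Kcnh2 and Kcnk3 was not tested. Kcnc4 stood out most from its next cluster by the ratio of mean CPM + 1 (5.02), but 93.7% of its reads in cluster 6 came from 1 cell.

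Cluster 1 was compared with the other fibroblast clusters in 4 strains. Of 49 members tested, 2 passed, both higher in cluster 1 (edgeR, 1.33% of 13201 genes passed, 0.561% higher in cluster 1). Kcnj15, an inward rectifier, had 155.7, 178.9, 148.1 and 219.9 CPM in cluster 1 against 13.5, 9.85, 0.205 and 4.15 CPM in clusters 2 to 5 (log2 fold change 4.64 ± 0.92, adjusted p = 0.0390). Its lowest level in cluster 1 was over any of the others, including cluster 6 of Cspg4dsRED with 91.9 CPM. A count of Kcnj15 was present in 36 of 70 cells, 51.4% of cluster 1. Kcnq5, a Kv channel, had 11.2, 3.72, 108.6 and 1.04 CPM in cluster 1 against at most 0.112 CPM in clusters 2 to 5 (8.29 ± 1.79, adjusted p = 0.0499), and 43.1% of its reads in cluster 1 were from 1 cell.

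Neither call was steady. With the strain as a replicate block no member passed, with adjusted p of 0.0937 for Kcnj15 and 0.199 for Kcnq5 (edgeR). Kcnj15 had 0.194 without C57BL6, 0.192 without PdgfrbGFP and 0.168 without Acta2GFP, and Kcnq5 had 0.134 to 0.257 without any 1 strain. Of these strains, Cspg4dsRED had only 3 cells in cluster 1. Cacna1g, a T-type calcium channel pore that drives pacemaking, had 125.4, 0.124, 91.3 and 29.1 CPM in cluster 1, and was thus high in 3 strains and near 0 in PdgfrbGFP. Kcnmb4, an auxiliary subunit of the large-conductance calcium-activated channel, differed most from its next cluster by the ratio of mean CPM + 1 (6.86), but 55.5% of its reads there were from 1 cell and 31.5% of its exon bases overlap other genes.

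Scn7a and Kcnk2 had lower levels in cluster 1 than in the sum of clusters 2 to 5. The mean of Kcnk2 was lower still in cluster 3, though its PdgfrbGFP level was not. Scn7a had 34.1, 2.60, 0 and 29.1 CPM in cluster 1 against 251.4, 179.4, 184.4 and 193.1 CPM in clusters 2 to 5 (log2 fold change -3.56 ± 0.93, edgeR adjusted p = 0.101). Kcnk2 had 15.5, 0.124, 0 and 1.41 CPM against 36.8, 37.03, 65.8 and 40.5 CPM (-3.32 ± 1.37, adjusted p = 0.462). The groups did not overlap in either gene. S100b, a gene of Schwann cells among others, had a mean of 181.4 CPM in cluster 1, and its part in the levels of cluster 1 was not tested.

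Within clusters 2 to 5, the fibroblasts other than cluster 1, 1 of 64 members tested differed between clusters (edgeR F test, 0.301% of 16629 genes passed). This was Kcnk2 (F = 14.7, adjusted p = 0.0360). It had 66.96, 53.8, 49.4 and 56.4 CPM in cluster 2, 27.5, 44.2, 92.3 and 39.2 CPM in cluster 4, and 39.1 and 25.4 CPM in cluster 5 of C57BL6 and PdgfrbGFP. In cluster 3 it had 0.769, 0.463 and 0.916 CPM in C57BL6, PdgfrbGFP and Acta2GFP, so cluster 3 lay far below clusters 2 and 4 in these 3 strains, and below cluster 5 in C57BL6 and PdgfrbGFP, the strains with a sum there. The call was lost with the strain as a replicate block (adjusted p = 0.102) and on leaving out C57BL6 (0.724), PdgfrbGFP (0.304), Cspg4dsRED (0.0906) or Acta2GFP (0.465). Of the exon bases of Kcnk2, 12.2% overlap another gene.

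Piezo2, Kcnip1, Kcng4 and Kcne1l had uneven levels within these fibroblasts, and none of them passed the F test. The edgeR adjusted p was 0.435 for Kcnip1 and 0.576 for Kcng4. Kcnip1 had 16.6, 0.130, 8.86 and 50.01 CPM in cluster 2 and at most 6.26 CPM in cluster 4. Piezo2, the stretch-gated channel of touch and airway sensing, had 27.1 to 81.2 CPM in cluster 4 against at most 1.82 CPM in cluster 2, but 59.7, 0.463 and 47.3 CPM in the 3 strains of cluster 3 (edgeR adjusted p = 0.432). The mean of Kcng4 was highest in cluster 2, with 35.2, 1.17, 35.4 and 27.6 CPM, but PdgfrbGFP had 8.07 CPM in cluster 5. The mean of Kcne1l was highest in cluster 4, with 24.8, 65.5, 44.7 and 9.20 CPM, but Acta2GFP had 23.4 CPM in cluster 2. The large C57BL6 plates also differed, with 0.256 CPM of Kcne1l in cluster 2 and 41.7 CPM in cluster 4 on the plate heart_203s, and 23.4 and 0.109 CPM on the plate heart_316s. Kcnab2 was highest in cluster 3, where 99.4% of its reads came from 1 cell. Kcnt2 was highest in cluster 5 by little, with 96.8 ± 8.75 CPM (n = 2) against 80.03 ± 42.01 CPM (n = 4) in cluster 4.

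A few members had moderate mean levels in every cluster. Clcn4 had means of 100.6 to 277.1 CPM over the 8 clusters, Ano6 of 75.3 to 219.97 CPM, Trpm7, a channel fused to a kinase that carries magnesium, of 32.6 to 172.8 CPM, and Clcn7 of 28.1 to 186.7 CPM. Of these, 11.5% of the exon bases of Clcn4 overlap another gene. In fibroblasts against mural cells none of these 4 passed the test, which does not show that their levels were equal.

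A list of 56 other channel and pore genes, with the 6 set aside by name among them, gives the context. Of these, 39 were tested between fibroblasts and mural cells, 2 were higher and 7 lower in fibroblasts (edgeR), beside 3.47% and 2.45% of all 15117 genes. The list was chosen with earlier results known, and nothing is read from these counts. The higher ones were Orai2, a store-operated calcium channel (18.3 ± 13.01 against 0.348 ± 0.229 CPM, log2 fold change 5.65 ± 1.02, adjusted p = 0.0101), and P2rx4, an ATP-gated cation channel (109.02 ± 20.1 against 24.3 ± 7.46 CPM, 2.15 ± 0.37, adjusted p = 0.00819). The lower ones included the gap junction genes Gja4 (36.8 ± 12.2 against 993 ± 419.5 CPM) and Gjc1 (7.81 ± 5.33 against 265.01 ± 127.9 CPM). The remaining lower ones were Abcc9 and 4 of the genes set aside (Kcnj8, Kcnmb1, Cacna1c and Cacna1h). Of these, Cacna1c, the pore of the L-type calcium channel, had 9.003 ± 1.995 against 47.7 ± 27.3 CPM.

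Some members had 1 strain apart within fibroblast clusters. A strain was taken as apart when it lay 1 or more on the log2(CPM + 1) scale above or below the other 3. This had to hold in cluster 2 and in cluster 4, in the same direction. It held for 4 of the 64 members tested and for 7.46% of the 16629 genes (1240), a similar share. Ano1 in C57BL6 had 5.69 and 8.32 CPM in clusters 2 and 4 against at most 0.984 and 1.37 CPM in the other strains. The large C57BL6 plates differed, with 9.70 and 14.02 CPM on the plate heart_203s and 0 and 0 CPM on heart_316s. Of the Ano1 reads, 85.9% in cluster 2 and 90.4% in cluster 4 came from 1 cell each. Cacna1g was higher in Cspg4dsRED (27.8 and 43.01 CPM), where cluster 2 had 8 cells and cluster 4 had 13, Kcnip1, a Kv channel partner, was higher in Acta2GFP (50.01 and 6.26 CPM), and Scn2a, a sodium channel pore, in C57BL6 (5.57 and 4.22 CPM). By plate, Scn2a had 2.78 and 6.88 CPM on heart_203s and 9.84 and 0.326 CPM on heart_316s, so neither plate alone was apart in both clusters. In cluster 4, 1 cell gave 89.9% of the Kcnip1 reads, and 1 cell gave 64.3% of the Scn2a reads in cluster 2 and 55.3% in cluster 4. No member had a strain apart by 2 or more on this scale.

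Many members were at the limit of detection. When 10 or more reads were asked for in a cell, 57 of the 83 members still reached 5% of the cells of a cluster. Cacna2d4, a calcium channel auxiliary gene, and Kcna1, a Kv pore, had no cell with 10 reads, although the share of cells with a read in cluster 6 was 17.9% and 23.1%. Of the Trpm2 cells, 97.3% had under 10 reads with a median of 1. Reads of Smart-seq2 are not counted by molecule, so a share of cells with a read is a share of detection only. With 10 or more reads asked for, the share was 72.9% for Kcnab1 in cluster 7 and 37.1% for Kcnj15 in cluster 1.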

How the data were processed

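The table deposited by the authors held raw read counts per gene for 1279 cells, not normalized. Per the study's methods, Smart-seq2 reads were trimmed with Trim Galore, mapped to GRCm38 with TopHat2 and counted with featureCounts, and the authors filtered cells and clustered them with pagoda2 on the same values. The annotation release and strand setting are not given in the sources used here, so reads of overlapping genes on opposite strands cannot be told apart. The methods state that doublets were removed, and here no doublet caller was run and no cell was left out. ERCC spike-ins (92 features, 1.82% of counts) were left out. Counts per cell ran from 46268 to 1302397 (median 274504), and intervals cover counting error only.

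The labels name no animal, so the strain was the replicate and cells were summed per strain and side (3 or more cells). P-values measure the spread between these sums. Tests were the edgeR 4.0.16 quasi-likelihood F test with TMM and filterByExpr (minimum count 10), adjusted by Benjamini-Hochberg over all genes, threshold 0.05. SEs are absolute log2 fold changes over the root of the F statistic. Exon lengths are from GENCODE M21 (GRCm38). The same strain gave sums on both sides from the same plates. Deviations of same-strain sums correlated at 0.12 to 0.22 between fibroblasts and mural cells, and at 0.04 to 0.18 in the other comparisons, so the strain as a replicate block was fitted too. Alternatives were DESeq2 size factors, no filter, DESeq2 1.42.0, limma-voom (limma 3.58.1), cells thinned to 50000 counts, each strain left out, and fibroblasts against mural cells without clusters 1 and 6. The script was tested on simulated data.

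The members and lists were chosen with earlier results of these data known. Members named were the 12 with the highest level per kb, up to 5 per comparison and direction with the largest fold change among those that passed in the same direction in every strain, the 2 nearest the 5% limit on each side, and per cluster the member that most exceeded its next cluster (ratio of mean CPM + 1, mean of 5 CPM or more). Others were named to describe a subfamily or a subunit set, after their values were seen. Values of some members that these rules name are not reported here.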

Additional observations from a re-analysis of the deposited data

Results flagged for a closer look

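Some named members had 1 strain far from the other 3 in the summed counts of fibroblasts or mural cells, by Dixon's ratio of the gap to the range. Of 56 groups of 4 strains examined, 11 had such a strain, and chance gives about 1 in 20 for normal values. That rate does not hold for sums at or near 0, where a few reads in 1 strain set it apart, as for Cacna2d3 and Kcnt1 in fibroblasts, so the count is not read against it. In fibroblasts, Cspg4dsRED had 60.7 CPM of Kcnk2 against 31.98 to 36.1 CPM in the others, and 8.43 CPM of Kcnq5 against 0.289 to 0.506 CPM. C57BL6 had 243.7 CPM of Scn7a against 157.2 to 170.3 CPM, and 1.05 CPM of Cacna2d3 against 0. PdgfrbGFP had 3.20 CPM of Kcnmb4 against 0.0362 to 0.0948 CPM. Acta2GFP had 3.57 CPM of Kcnab2 against 0 to 0.190 CPM, and 0.206 CPM of Kcnt1 against 0. In mural cells, Cspg4dsRED stood apart in 4 members: Kcnj15 with 28.2 CPM against 0.232 to 0.927 CPM, Kcnc4 with 6.75 CPM against 0 to 0.83 CPM, Kcnk2 with 2.80 CPM against 0.194 to 0.488 CPM, and Cacna2d3 with 2.01 CPM against 0 to 0.116 CPM. Cspg4dsRED gave 33 of the 39 cells of cluster 6. Its level there was 91.9 CPM for Kcnj15, 22.02 CPM for Kcnc4 and 6.57 CPM for Cacna2d3, with at most 0.279 CPM in its clusters 7 and 8, while Kcnk2 was at 0.0925 CPM there against 14.2 CPM in cluster 8.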

How the results depend on the processing

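The list held 57 members with 10 or more reads, 63 at 10% of the cells, 66 with thinned cells and 82 with the share reached in 2 or more strains, against 83. Between fibroblasts and mural cells 14 members passed, 23 with DESeq2 and 6 to 10 when a strain was left out. The share of all genes there, 5.93%, was 2.58% without the filter, 13.2% with DESeq2, 9.55% with limma-voom and 2.66 to 3.91% without a strain. Between clusters 8 and 7, 0 members passed, 1 with DESeq2 size factors, without the filter, with limma-voom or with the replicate block, 3 with DESeq2, and 0 to 1 without a strain. The share of all genes, 0.194%, was 0.379% with DESeq2 size factors, 0.855% without the filter, 3.44% with DESeq2, 1.31% with limma-voom, 0.691% with the replicate block and 0 to 0.987% without a strain. In cluster 1 against clusters 2 to 5, 2 members became 1 without the filter, 4 with limma-voom, 0 with the replicate block and 0 to 1 without a strain, and 1.33% of all genes became 0.530% without the filter, 5.30% with DESeq2, 2.93% with limma-voom, 0.742% with the replicate block and 0.201 to 0.748% without a strain. In cluster 6 against clusters 7 and 8, 0 members became 1 without the filter, with limma-voom or with the replicate block, 5 with DESeq2 and 0 to 1 without a strain, and 0.0330% of all genes became 0.418% without the filter, 2.99% with DESeq2, 0.479% with limma-voom, 0.883% with the replicate block, 0.158% with thinned cells and 0 to 0.495% without a strain. Among clusters 2 to 5, 1 member became 0 without the filter, with the replicate block and without any 1 strain, and 4 with DESeq2, and 0.301% of all genes became 3.29% with DESeq2, 1.08% with limma-voom, 0.528% with thinned cells and 0 to 0.133% without a strain. With a difference of 2, 0 members had a strain apart. The cause was not tested, beyond the fewer samples of fits without a strain. Fold changes between fibroblasts and mural cells that changed sign, none of them called, were Ano10 (-0.05 with limma-voom, -0.13 with thinned cells, -0.17 without clusters 1 and 6, and -0.32 to 0.40 without a strain), Clcn4 (-0.49 to 0.03 without a strain), Kcnq5 (-0.00 to 4.23 without a strain) and Scnm1 (0.01 with limma-voom). The cluster with the highest level was another in 17.9% of the recalculations of named members. With 2 to 4 strains per cluster and 3 cells in some sums, depth and strain number limit what can be told apart.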
